A study of Mus musculus with 2 samples.

Results

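Gamma delta T cells of the adrenal gland were sought among leukocytes by transcript content, and 90 of 6319 cells met the rule. A cell was a member if its droplet barcode held at least 200 genes and at most 15% mitochondrial counts, together with at least 2 unique molecular identifiers (UMIs, 1 per captured transcript) of Cd3d, Cd3e and Cd3g and at least 1 UMI of Trdc. It had in addition to hold no UMI of Trac, Cd4, Cd40lg, Cd8b1 or Cd79a and at most 2 UMIs of C1qa, C1qb and C1qc. These values chose the members and are given below only as a description. Live CD45+ cells (leukocytes) had been sorted from the adrenal glands of C57BL/6 mice aged 7 weeks, 1 library from females and 1 from males, with no treatment and no genetic modification in the labels and with the number of animals behind each library not stated. Of these members 54 came from 3817 female and 36 from 2502 male cells. The name gamma delta T cell went only partly with the receptor genes of these cells, as described below, so the members are called Cd3+ Trdc+ Trac- cells here.

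A T cell receptor is a pair of clonally rearranged chains that reaches the cell surface together with the CD3 proteins. Conventional T cells pair an alpha with a beta chain (constant genes Trac, Trbc1 and Trbc2), and gamma delta T cells pair a gamma chain (Tcrg-C1, Tcrg-C2 or Tcrg-C4 in the mouse) with a delta chain (Trdc). Gamma delta T cells settle in tissues early in life, and in the mouse many of them either make interleukin-17 or make interferon gamma and carry the cytotoxic genes and receptors of natural killer (NK) cells. NK cells carry no rearranged receptor but can contain transcripts of CD3 and receptor constant genes. For comparison, 828 T cells with Trac and no Trdc (549 female, 279 male) and 929 NK cells with at least 2 UMIs of the receptors Ncr1 and Klre1 and at most 1 Cd3 UMI (656 female, 273 male) were taken by the same kind of rule.

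The gamma constant genes lie on mouse chromosome 13 and Trdc on chromosome 14, inside the alpha chain locus. In the reference assembly GRCm38, which is the build mm10 that the processing notes name, Trdc (ENSMUSG00000104876) spans chr14:54142851-54148868 on the plus strand, upstream of Trac at chr14:54220521-54224206. Tcrg-C1 (ENSMUSG00000076749) spans chr13:19214103-19217024 and Tcrg-C4 (ENSMUSG00000076757) chr13:19344558-19352756, both on the plus strand, and Tcrg-C2 (ENSMUSG00000076752) spans chr13:19304649-19307551 on the minus strand. Because 3′ reads of 55 bases were counted, a read from a stretch shared by near-identical gamma constant genes cannot be assigned to a single gene. The sequences show how alike they are, with the first 60 bases of the last coding exon (140 bases, GENCODE annotation) read 5′ to 3′ and capitals marking bases that differ from Tcrg-C1:
Tcrg-C1: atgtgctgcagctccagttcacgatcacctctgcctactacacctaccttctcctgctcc
Tcrg-C2: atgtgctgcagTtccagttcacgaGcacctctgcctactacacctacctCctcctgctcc
Tcrg-C3: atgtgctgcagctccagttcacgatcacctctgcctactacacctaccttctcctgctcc
Tcrg-C4: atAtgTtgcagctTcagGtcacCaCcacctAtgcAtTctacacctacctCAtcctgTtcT
Over the whole exon Tcrg-C2 matched Tcrg-C1 at 97.1% of the bases, Tcrg-C3 at 98.6% and Tcrg-C4 at 68.6%. Of the 346 windows of 55 bases in the last 400 bases of the Tcrg-C1 transcript, 67 (19.4%) also occurred in Tcrg-C2 and 0 in Tcrg-C3. Of the Tcrg-C3 windows 148 (42.8%) occurred in Tcrg-C1, and no window of Tcrg-C4 occurred in any of the other genes. The separate counts of Tcrg-C1, Tcrg-C2 and Tcrg-C3 are therefore uncertain. These genes are counted together where a cell is called positive, and Tcrg-C4 is kept apart.

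Members made up 1.41% of female leukocytes (95% Clopper-Pearson interval 1.06 to 1.84) and 1.44% of male leukocytes (1.01 to 1.99). The difference was -0.02 percentage points (Newcombe interval -0.66 to 0.56), so none was detectable between these libraries. Among members and T cells together the members were 8.96% (6.80 to 11.5) in females and 11.4% (8.13 to 15.5) in males. With 1 library per sex no test across animals was possible, and all intervals cover counting error only. The members held 276162 UMIs in females and 190535 in males, or 4688 and 4580.5 UMIs in the median cell, against 4118 and 4088 in T cells and 4073.5 and 4701 in NK cells. The libraries held 16218309 and 9512670 UMIs over 3963 and 2685 barcodes. They shared 2 barcodes, none of them a member's.

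Most members also carried NK cell receptor transcripts. At least 2 UMIs of Ncr1 and Klre1, the cut used for NK cells, were found in 39 of 54 female members (72.2%, 58.4 to 83.5) and 22 of 36 male members (61.1%, 43.5 to 76.9). Among T cells the same cut was passed by 98 of 549 and 42 of 279 cells. The members with NK receptors fell into cells with and without Cd3e, the signalling chain without which CD3 does not assemble. They were described in 3 classes: 29 members without NK receptors (15 female, 14 male), 21 members with NK receptors and Cd3e (13 female, 8 male) and 40 members with NK receptors and no Cd3e UMI (26 female, 14 male). These classes were drawn after the values had been seen, so differences between them are descriptions without a test.

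**Figure D1:**
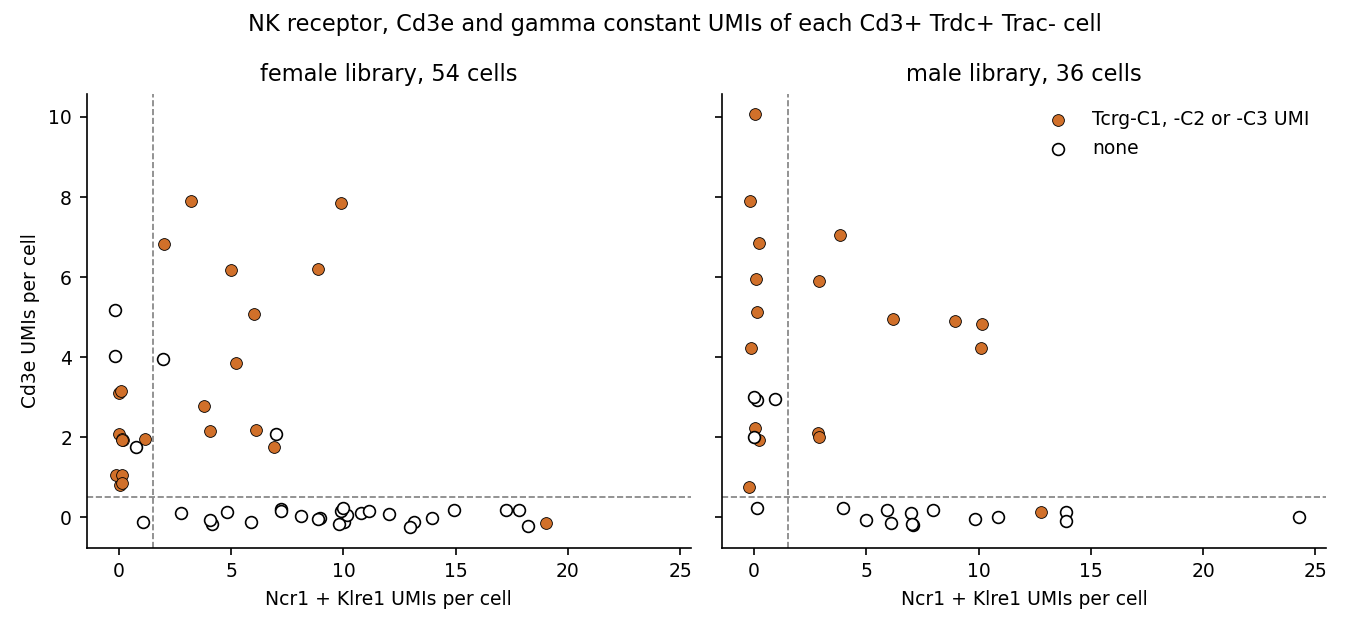
Each point is a Cd3+ Trdc+ Trac- cell, placed by its summed Ncr1 and Klre1 UMIs (horizontal) and its Cd3e UMIs (vertical) with a small random shift, in the female (54 cells) and male (36 cells) library; filled points held a UMI of Tcrg-C1, Tcrg-C2 or Tcrg-C3. Of the 40 cells with NK receptors and no Cd3e UMI, 2 were filled.

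The 3 classes differed in the CD3 genes they were chosen on. In members without NK receptors 12 of 15 female and 13 of 14 male cells held all 3 Cd3 genes, and in members with NK receptors and Cd3e all 13 and all 8 cells did. In members with NK receptors and no Cd3e, Cd3g was the sole Cd3 gene in 21 of 26 female and 7 of 14 male cells. Among T cells Cd3g was the sole Cd3 gene in 8 of 549 and 2 of 279 cells. In NK cells it was seen in 36 of 656 and 19 of 273. The NK cell rule allowed at most 1 Cd3 UMI, so any Cd3 gene seen there was the sole one. The NK cell shares therefore cannot be set against those of members or T cells. At the edge of the rule, the 10 members with a Cd3 sum of exactly 2 (5 per library) all carried NK receptors and none held Tcrg-C1, Tcrg-C2 or Tcrg-C3. Just outside it, 14 female and 5 male cells with Trdc and a Cd3 sum of 1 all carried NK receptors, and 1 of them in each library held a Tcrg-C1, Tcrg-C2 or Tcrg-C3 UMI. A further 6 female and 4 male cells missed the rule by a single Trac UMI.

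Trdc, the delta constant gene required of every member, was more abundant in the other 2 classes than in members with NK receptors and no Cd3e. It reached 1368 and 2156 CPM (the UMIs of a gene scaled to a common total) in female and male members without NK receptors, and 1569 and 1280.4 CPM in those with NK receptors and Cd3e. In members with NK receptors and no Cd3e it lay at 311 and 189 CPM, or 1.5 and 1 UMIs in the median cell. Cells of the NK gate, which did not require Trdc, also contained it, at 69.7 and 74.9 CPM and in 161 and 67 cells. Members accounted for 34.6% (female) and 48.1% (male) of the Trdc UMIs over all kept barcodes, and NK cells for 33.6% and 27.8%.

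Gamma constant transcripts, which the rule did not use, separated the classes in the same way. In females 23 of 54 members held a UMI of Tcrg-C1, Tcrg-C2 or Tcrg-C3 (42.6%, 29.2 to 56.8), and in males 18 of 36 did (interval 32.9% to 67.1%). By class, 11 of 15 and 9 of 14 cells without NK receptors held such a UMI, as did 11 of 13 and 8 of 8 cells with NK receptors and Cd3e. In cells with NK receptors and no Cd3e it was 1 of 26 (3.85%, 0.0973 to 19.6) and 1 of 14 (7.14%, 0.181 to 33.9). That share did not exceed the NK cell background of 4.57% (30 of 656) and 5.13% (14 of 273) by more than counting error. No B cell of 458 and 246 held such a UMI, with Clopper-Pearson upper limits of 0.802% and 1.49%. When 1000 UMIs were drawn from every cell to equalise depth, the shares were 4 of 14 and 7 of 14 without NK receptors, 6 of 13 and 4 of 8 with NK receptors and Cd3e, and 1 of 26 and 0 of 14 with NK receptors and no Cd3e. Trac-positive T cells held the same genes in 25.1% and 30.1% of cells, and in 11.5% and 15.3% after the draw.

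**Figure D2:**
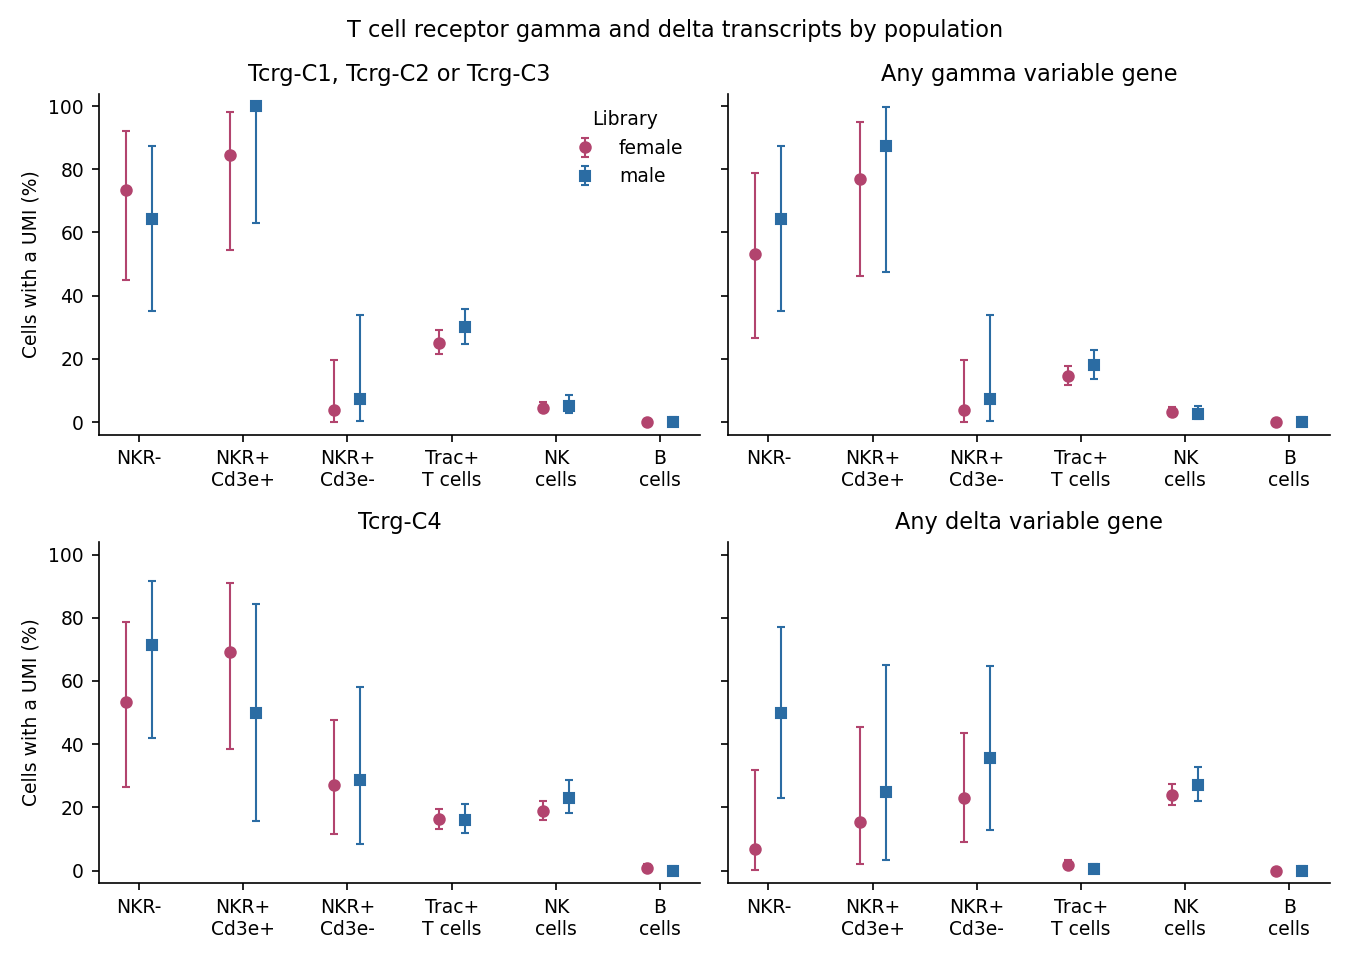
Share of cells with a UMI (vertical, %) of gamma constant, gamma variable and delta receptor transcripts in the classes of Cd3+ Trdc+ Trac- cells, T cells, NK cells and B cells, with the female and male library as separate points and 95% Clopper-Pearson intervals as bars (NKR+ and NKR-, with and without at least 2 NK receptor UMIs). For Tcrg-C1, Tcrg-C2 or Tcrg-C3 the cells with NK receptors and no Cd3e sit at 3.85% and 7.14%, beside NK cells at 4.57% and 5.13%, with the other members at 64.3% and above.

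The level of each gamma constant gene was lowest in members with NK receptors and no Cd3e in both libraries, and the other 2 classes had no common order. Tcrg-C2 reached 496 and 267 CPM in female and male members without NK receptors and 441 and 373 CPM in those with NK receptors and Cd3e, but 6.21 and 0 CPM in those with NK receptors and no Cd3e. T cells held 95.2 and 149 CPM and NK cells 0.981 and 1.44 CPM. Tcrg-C1 lay at 171 and 592, 423 and 373 and 0 and 29.8 CPM in the 3 classes. The female and male members without NK receptors differed most here, and their Tcrg-C1 levels rest on 10 and 31 UMIs. Tcrg-C4 was less restricted, at 274 and 553, 441 and 213 and 87.0 and 79.5 CPM in the classes and 95.2 and 110.2 CPM in NK cells, where 124 of 656 and 63 of 273 cells held it. Tcrg-C3 was not detected in any member. Most Tcrg-C2 UMIs did not lie in members at all: T cells with Trac held 61.6% of the female and 72.4% of the male ones.

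Variable gene segments, which 3′ counting reaches only in part, were seen in some of the members. A gamma variable gene was seen in 8 of 15 and 9 of 14 members without NK receptors, in 10 of 13 and 7 of 8 with NK receptors and Cd3e, and in 1 of 26 and 1 of 14 with NK receptors and no Cd3e. Trgv2 was the commonest, in 6 and 8, 7 and 5, and 1 and 0 cells of these classes, against 61 and 47 T cells and 1 and 0 NK cells. Tcrg-V1 (the V gamma 1 segment) followed in 3 and 5, 3 and 4, and 1 and 1 cells, and Tcrg-V4 in 0 and 2, 3 and 2, and 0 and 0 cells. Tcrg-V3 and Tcrg-V7 had no UMI in any member, Tcrg-V5 had 1 and Tcrg-V6 had 1. Delta variable genes marked the members less clearly: Trdv4 and Trdv2-2 were found in 86 and 43 and 87 and 33 NK cells, and a delta variable gene was seen in 1 of 15 and 7 of 14 members without NK receptors. Beta chain constant transcripts were almost universal, in 52 of 54 and 34 of 36 members, but also in 82.2% and 86.1% of NK cells. In B cells they were found in 4.15% and 2.44% of cells.

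The members were then compared with T cells and with NK cells gene by gene. UMIs were summed per library over members, T cells and NK cells, and the 6 sums were fitted with edgeR's quasi-likelihood test with the library as a term. Adjusted p-values are Benjamini-Hochberg values, from that fit over 5700 genes unless another setting is named, with 0.05 as the threshold. Differences are log2 values, members minus the other population, ± SE. The 14 genes of the rules were left out. The library term takes out the difference that all populations share between the libraries. The spread left is how far population differences vary between 2 libraries of different sex. It is pooled over the 6 sums and drawn towards a value shared across genes. The p-values therefore do not measure variation between animals. Genes linked to the rules' genes can differ through the choice of cells. Against T cells 415 genes (7.28% of those tested) passed, 214 higher (3.75%) and 201 lower (3.53%) in members. Against NK cells 123 genes (2.16%) passed, 63 higher (1.11%) and 60 lower (1.05%). The median over all genes was 0.01 in both comparisons. Both use the same member sums and are not independent.

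**Figure D3:**
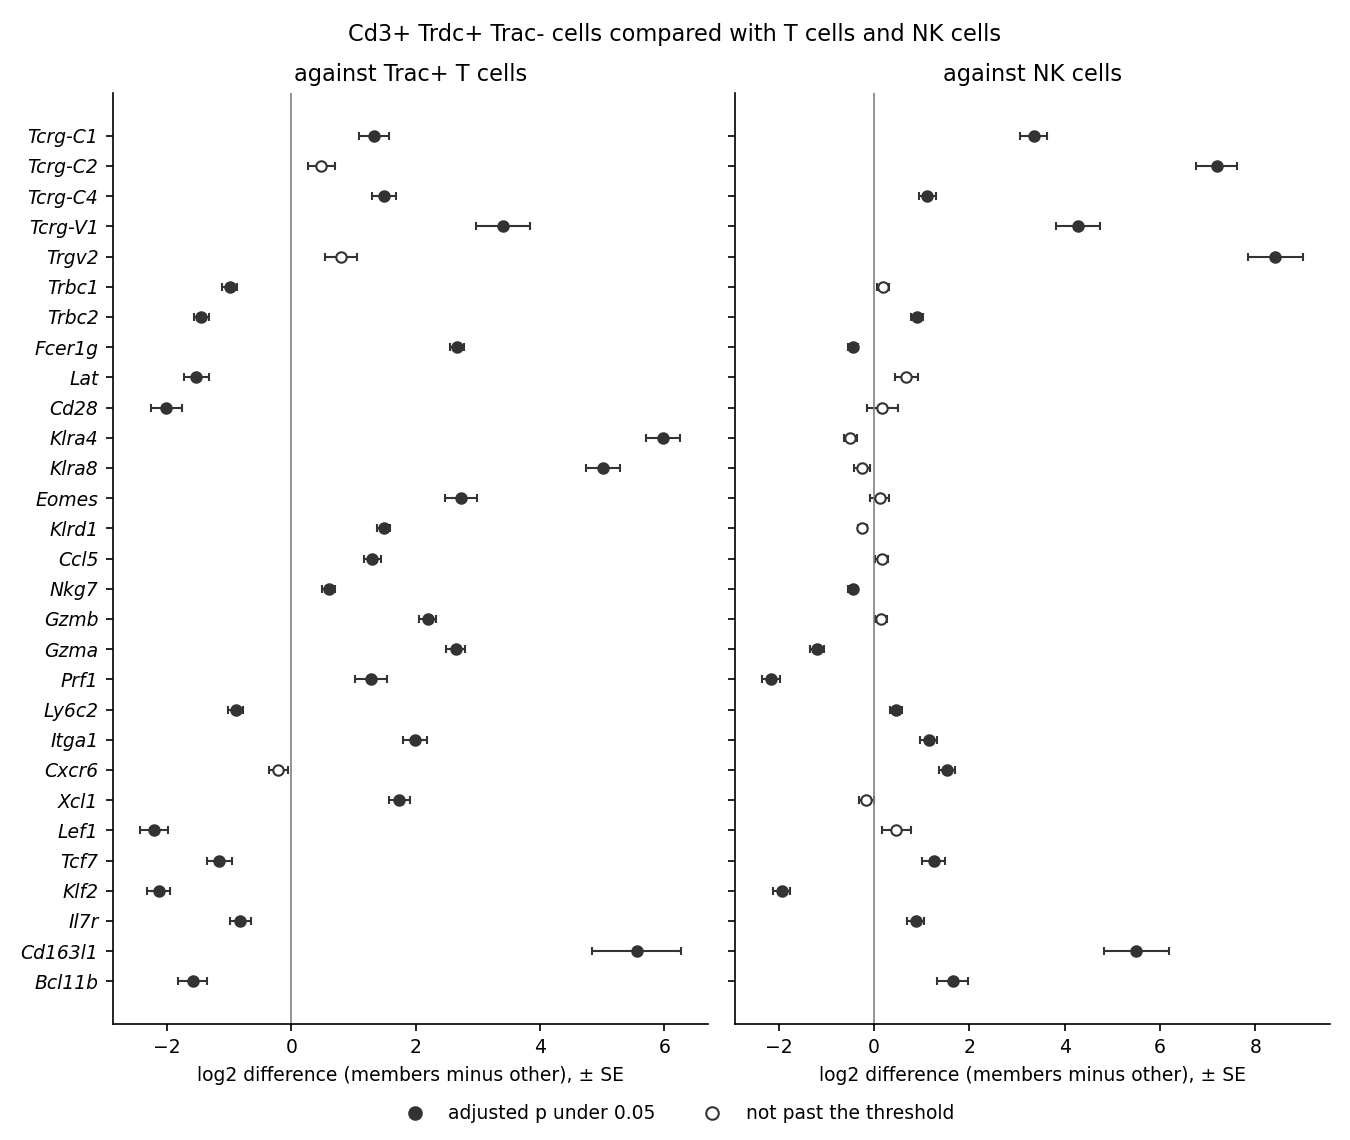
Log2 difference (horizontal, members minus the other population, ± SE from edgeR) of 29 genes between Cd3+ Trdc+ Trac- cells and T cells (left) or NK cells (right); filled points had an adjusted p under 0.05 and open points did not. Tcrg-C2 and Trgv2 sit far right only against NK cells, and Fcer1g, Klra4 and Gzmb only against T cells.

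The members as a whole differed from T cells by an NK-like gene set. All 8 tested NK marker genes were higher in members (median 2.29), as were 16 of 21 genes of the cytotoxic and type 1 program (median 1.28), with 1 lower and 4 not passing. Klra4 and Klra8, activating receptors of the Ly49 family, had the largest differences among the genes named by rule, 5.97 ± 0.27 (adjusted p = 6.32e-18) and 5.02 ± 0.27 (adjusted p = 1.04e-15). The signalling adaptors Tyrobp and Fcer1g, which transmit signals of NK receptors, were higher by 3.24 ± 0.13 and 2.67 ± 0.11 (adjusted p = 3.79e-19 and 7.61e-19). Eomes, a transcription factor of NK and memory T cells, was higher by 2.74 ± 0.26, the protease gene Gzmb by 2.19 ± 0.14, the receptor subunit Klrd1 by 1.49 ± 0.11, the chemokine Ccl5 by 1.30 ± 0.14, the pore-forming Prf1 by 1.28 ± 0.26 and Nkg7 by 0.60 ± 0.10. The Prf1 call ended with at least 2 Trdc UMIs (0.73, adjusted p = 0.281) and with a Tcrg-C UMI (0.60, adjusted p = 0.512), and the Nkg7 call with a Tcrg-C UMI (0.45, adjusted p = 0.0632). The 8 further genes with large differences that the rule named were Styk1, Gm43647, Olfm1, Itgax, Napsa, Klri2, Tcrg-V1 and Tyrobp, at 3.23 to 3.94. Ly6c2 was the single gene of the program that was lower, at -0.90 ± 0.12 (adjusted p = 1.16e-06). That call ended with at least 2 Trdc UMIs (-0.40, adjusted p = 0.0516) and with a Tcrg-C UMI (-0.26, adjusted p = 0.406), and the value turned to 0.22 with a Cd3e UMI required and to 0.06 in members without NK receptors (adjusted p = 0.609 and 0.972).

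The same fit was repeated in subsets of the members. The 29 members without NK receptors are chosen by 2 NK receptor genes, so lower values of NK genes follow in part from the choice, and they hold 58485 and 52407 UMIs, fewer than the members as a whole. Set against T cells that likewise lacked NK receptors (451 female, 237 male), 60 genes (1.05%) passed, 22 higher (0.386%) and 38 lower (0.667%) in members. No gene of the NK marker list passed, and 4 of 21 genes of the cytotoxic program were higher, Klrd1 (0.96, adjusted p = 0.0356), Klrc1, Klrc2 and Klrk1. Fcer1g stayed higher (1.97, adjusted p = 0.00531), while Tyrobp (1.36, adjusted p = 0.201) and Eomes (2.06, adjusted p = 0.119) did not pass. The median female and male member of this class held 1 and 0 Fcer1g UMIs. Female cells just under the receptor cut, with 1 UMI of Ncr1 and Klre1, held 6, 10 and 2. Against all T cells the Fcer1g difference was 0.13 (adjusted p = 0.96). Gzmb, Nkg7 and Xcl1 had log2 differences of -0.67, -0.16 and -0.34 there, none of them past the threshold. Set against all T cells, of which 98 and 42 carried NK receptors, the same 29 members gave 10 genes (0.176%), 5 higher (0.0878%) and 5 lower (0.0878%), and no gene of the cytotoxic program or of the NK marker list passed. Klra4 and Klra8 had no UMI in any member without NK receptors and none in members with NK receptors and Cd3e. All of their UMIs, 74 and 89 for Klra4 and 79 and 100 for Klra8, came from the members with NK receptors and no Cd3e, at 459.8 and 884 and 491 and 994 CPM. NK cells held Klra4 at 493 and 528 CPM. With a Cd3e UMI required, 48 members (27 female, 21 male) remained and 39 genes (0.684%) passed, 23 higher (0.404%) and 16 lower (0.281%). In that fit Fcer1g (2.01, adjusted p = 2.83e-05), Tyrobp (1.74, adjusted p = 0.0021) and Klrd1 (0.94, adjusted p = 0.0077) stayed past the threshold, together with Cd7, Klrc1, Klrc2 and Klrk1, and 16 genes of the program did not pass.

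**Figure D4:**
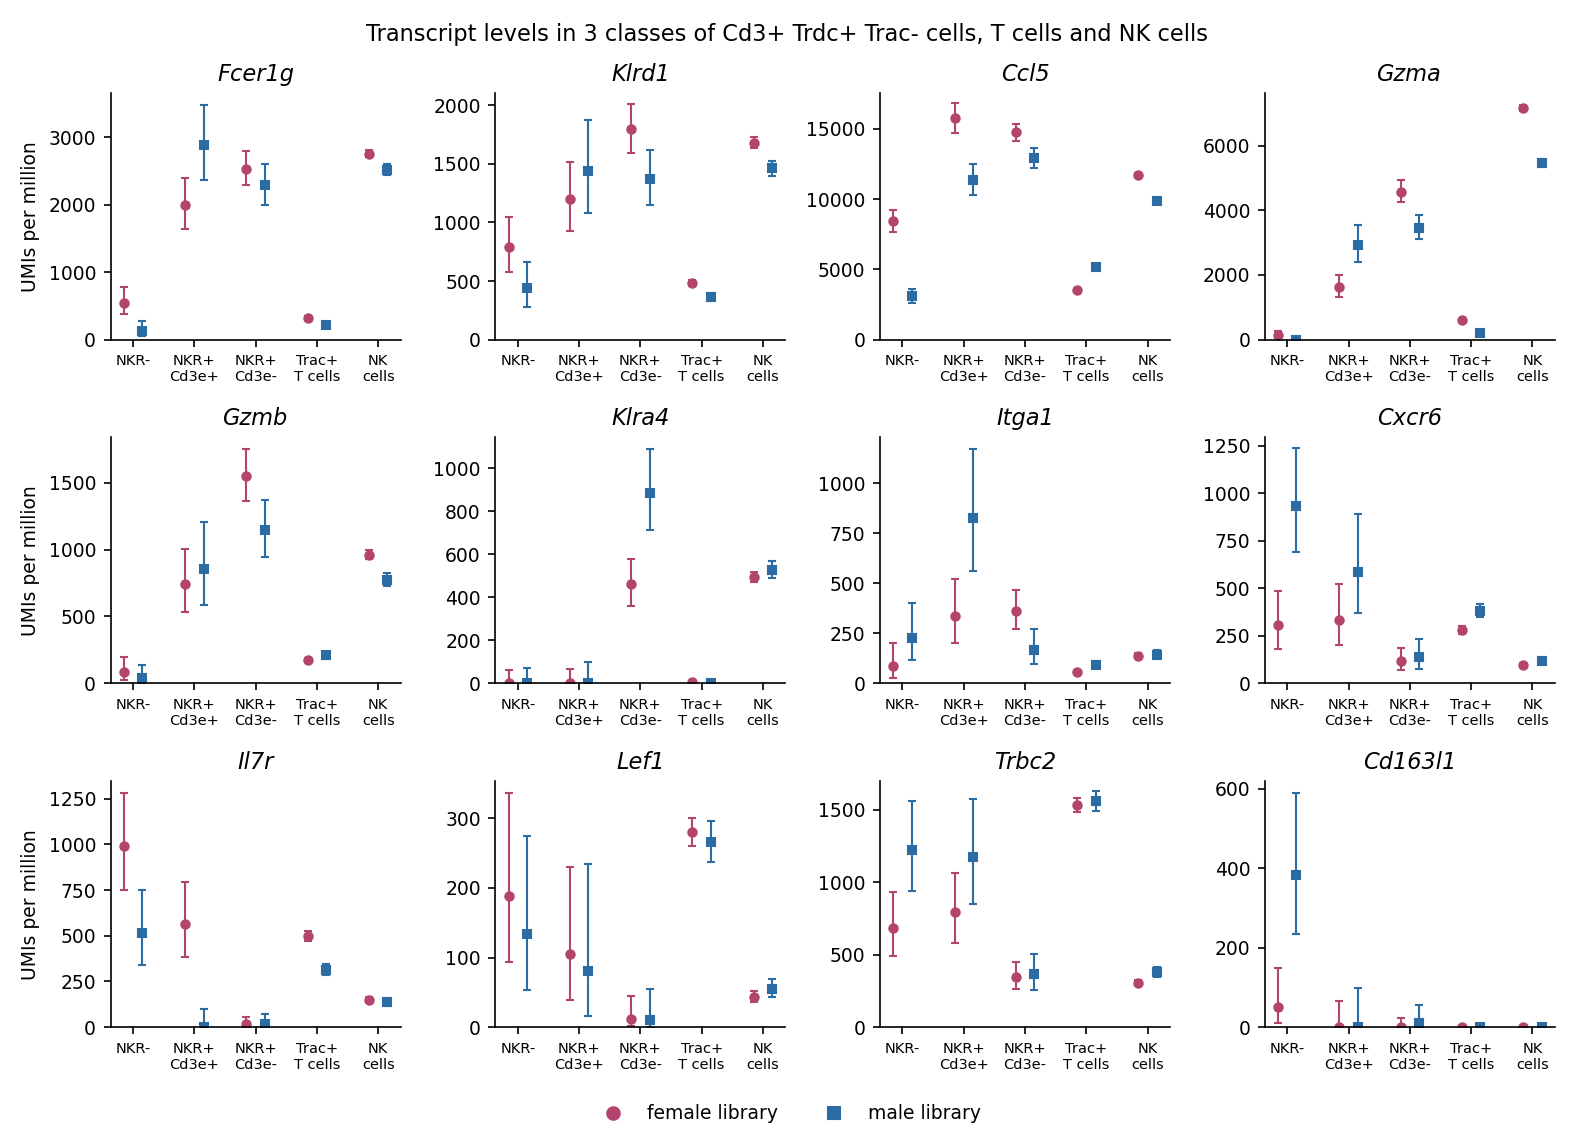
Transcript level (vertical, CPM with 95% exact Poisson intervals) of 12 genes in 3 classes of Cd3+ Trdc+ Trac- cells, T cells and NK cells, female and male library as separate points. Klra4 stands at 0 in the members without NK receptors and in those with NK receptors and Cd3e, and at 459.8 and 884 in those with NK receptors and no Cd3e.

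Several cytotoxic genes differed between the classes by level. Ccl5 lay at 8412 and 3072 CPM without NK receptors and at 15742 and 11337 with NK receptors and Cd3e. With NK receptors and no Cd3e it lay at 14744 and 12897 CPM, against 3530.1 and 5163 in T cells and 11715 and 9889 in NK cells. Without NK receptors the median cell held 25 and 3 Ccl5 UMIs, and 13 of 15 and 10 of 14 cells held any. Gzma, another granule protease, was found in 4 of 15 and 0 of 14 cells without NK receptors (137 and 0 CPM), in 5 of 13 and 4 of 8 cells with NK receptors and Cd3e, and in 21 of 26 and 11 of 14 cells with NK receptors and no Cd3e (4585 and 3468 CPM). Fcer1g lay at 547 and 134 CPM without NK receptors and at 1992 and 2881 with NK receptors and Cd3e, beside an NK cell level of 2759 and 2522. Cd7, a surface protein of T and NK cells, lay at 410.4 and 134, 1287 and 1761 and 1789 and 1212 CPM in the classes. Ly6c2, a marker of memory-like and circulating T cells, had 0 and 2 UMIs in members with NK receptors and no Cd3e, and lay at 1317 and 954 CPM in those without NK receptors and at 635 and 2347 CPM in those with NK receptors and Cd3e.

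Most tested genes of naive and recirculating T cells were lower in the members than in T cells. Of 11 tested genes of that list 9 were lower than in T cells (median -1.81) and none was higher. Lef1, a transcription factor of naive T cells, differed by -2.21 ± 0.22 (adjusted p = 3.73e-09) and was found in 12 and 7 members at 68.8 and 57.7 CPM, against 279.7 and 265 CPM in T cells. Klf2, which controls exit from tissue, differed by -2.14 ± 0.18 (adjusted p = 1.22e-10). Among members without NK receptors Lef1 stood at 188 and 134 CPM and no gene of the list passed against all T cells, and against T cells without NK receptors Klf2 alone did (-1.13, adjusted p = 0.0328). With a Cd3e UMI required, Klf2 (-1.46, adjusted p = 0.00668) and Dapl1 passed. Against NK cells the list was mixed, with 4 genes higher and 2 lower of 11 (median 0.47): Tcf7, a T cell lineage factor (1.25 ± 0.25, adjusted p = 0.00184), S1pr1 (1.73 ± 0.41), Ccr7 and Dapl1 were higher, and Klf2 (-1.94 ± 0.19, adjusted p = 3.49e-09) was among the lower ones. In members without NK receptors 6 genes of 13 were higher than in NK cells and 0 lower, with Klf2 at -0.74 (adjusted p = 0.25).

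Some genes linked to retention in tissue were higher in the members as a whole. Of 13 tested genes 7 were higher than in T cells and none lower (median 0.78), and 2 were higher and none lower than in NK cells. Itga1, the CD49a chain of a collagen-binding integrin, differed by 1.99 ± 0.19 (adjusted p = 1.95e-09) with 297 and 315 CPM in members and 55.5 and 93.9 CPM in T cells, and it stayed past the threshold when Cd3e was required (2.06, adjusted p = 0.00421). The chemokine Xcl1 differed by 1.73 ± 0.17, and Ahr, Litaf, Rgs1 and Runx3 also passed. With a Cd3e UMI required Itga1 was the single gene of the list that passed (Xcl1 0.37, adjusted p = 0.475), and in members without NK receptors none did against either set of T cells. Cxcr6, a chemokine receptor of resident lymphocytes, did not pass against T cells (-0.21 ± 0.15, adjusted p = 0.522) but was higher than in NK cells by 1.53 ± 0.17 (adjusted p = 1.43e-07), as was Itga1 (1.15 ± 0.18, adjusted p = 4.87e-05), whose call ended in members without NK receptors (0.03, adjusted p = 0.988). Against T cells Cxcr6 turned to 0.47 with a Cd3e UMI required and to 0.64 in members without NK receptors (adjusted p = 0.442 and 0.368). With the T cells so restricted as well it was 0.62 (adjusted p = 0.285). Cxcr6 lay at 308 and 935 CPM in members without NK receptors, 335 and 587 in those with NK receptors and Cd3e and 118 and 139 in the rest. Itgae, the CD103 integrin chain of epithelial lymphocytes, had no UMI in any member.

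Several gamma chain genes were higher in members than in T cells or NK cells, and beta chain genes lay below T cells. Tcrg-C1 (1.33 ± 0.24, adjusted p = 0.000192), Tcrg-C4 (1.48 ± 0.19, adjusted p = 8.31e-07) and Tcrg-V1 (3.41 ± 0.44, adjusted p = 6.27e-07) were higher than in T cells. Tcrg-C2 (0.48 ± 0.22, adjusted p = 0.22) and Trgv2 (0.79 ± 0.26, adjusted p = 0.0551) did not pass. Both did with a Cd3 sum of at least 3 (adjusted p = 0.0217 and 0.00445), with at least 2 Trdc UMIs (0.00376 and 0.000974) and with a Cd3e UMI required (1.63 and 1.91, adjusted p = 0.00928 and 0.00468), and Trgv2 did so with DESeq2 size factors (0.0473) and without doublets (0.0319). Against NK cells all 3 tested gamma constant genes were higher, with Tcrg-C2 at 7.19 ± 0.43 (adjusted p = 3.44e-14), Tcrg-C1 at 3.34 ± 0.29 and Tcrg-C4 at 1.12 ± 0.18, and so were Trgv2 (8.42 ± 0.58) and Tcrg-V1 (4.28 ± 0.47). The sizes of the Trgv2 and Tcrg-C2 differences from NK cells are poorly fixed, since NK cells held 1 and 0 Trgv2 UMIs against 27 and 25 in members and 3 and 2 Tcrg-C2 UMIs against 55 and 28. The upper Poisson bounds for Trgv2 in NK cells were 1.82 and 2.66 CPM, and the lower bounds in members 64.4 and 84.9 CPM. The beta constant genes Trbc1 (adjusted p = 1.61e-07) and Trbc2 (-1.45 ± 0.12, adjusted p = 2.99e-11) were lower than in T cells, and Trbc2 was higher than in NK cells (0.91 ± 0.13, adjusted p = 9.96e-06). The gamma constant and beta constant calls against T cells held in members without NK receptors.

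Of 14 tested genes of receptor signalling, 6 were lower than in T cells and 1, Fcer1g, was higher (median -0.59). The costimulatory receptor Cd28 differed by -2.01 ± 0.25 (adjusted p = 4.76e-07) and the adaptor Lat by -1.53 ± 0.20 (adjusted p = 9.2e-07), and Cd5, Cd6 and Thy1 were also lower. Cd247, the zeta chain, did not pass (-0.71 ± 0.25, adjusted p = 0.0805). Lat lay at 274 and 343 CPM in members without NK receptors and 31.1 and 49.7 in those with NK receptors and no Cd3e, where Cd28 had no UMI. In members without NK receptors none of the 14 passed against all T cells, and Fcer1g alone did against T cells without NK receptors. Against NK cells, Thy1 (0.57 ± 0.15, adjusted p = 0.0288) and Cd6 were higher and Fcer1g (-0.44 ± 0.10, adjusted p = 0.00925) was lower. The Thy1 and Fcer1g calls ended with DESeq2 (adjusted p = 0.294 and 0.271) and without the library term (0.103 and 0.383). The Thy1 call also ended without a filter on low levels (0.126). In members without NK receptors Thy1 was at 0.97 (adjusted p = 0.0527) and Fcer1g at -2.98 (adjusted p = 1.2e-06). Cd6 had 4 UMIs in members and none in the NK cells, too few to fix the size of the difference. Among lineage factors Bcl11b, which maintains T cell identity, was lower than in T cells (-1.59 ± 0.23, adjusted p = 8.14e-06) and higher than in NK cells (1.65 ± 0.33, adjusted p = 0.00184). Icos, a costimulatory receptor, was lower than in T cells (-1.64 ± 0.33). Neither call against T cells held in members without NK receptors (Bcl11b -0.48 and Icos -0.30, adjusted p = 0.738 and 0.923) or with a Cd3e UMI required (Bcl11b -0.64 and Icos -0.81, adjusted p = 0.387 and 0.456). The other genes named by rule as lower than in T cells, Actn1, Ms4a6b and Rcbtb2, lay at -1.53 to -1.41. These calls ended in members without NK receptors (-1.77, -0.47 and -1.03, adjusted p = 0.411, 0.742 and 0.738). They also ended with a Cd3e UMI required (-1.16, -0.75 and -0.68, adjusted p = 0.356, 0.354 and 0.578). The Actn1 and Rcbtb2 calls ended with DESeq2 as well (adjusted p = 0.125 and 0.0912).

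Against NK cells the cytotoxic program was lower in part, with 2 genes higher and 6 lower of 21 (median -0.13). In members without NK receptors 1 was higher and 10 were lower (median -0.97). With a Cd3e UMI required 1 was higher and 7 were lower (median -0.42). Over all members Prf1 differed by -2.16 ± 0.18 (adjusted p = 2.09e-10), with 76.0 and 163 CPM in members and 476 and 566 CPM in NK cells. Gzma (-1.19 ± 0.14, adjusted p = 2.4e-07), the receptor Klrb1c (-0.70 ± 0.11), Nkg7 (-0.45 ± 0.10) and Klrk1 were lower as well, as was Ifng, the interferon gamma gene (-1.10 ± 0.30, adjusted p = 0.0487). The Ifng call ended with DESeq2 (adjusted p = 0.523) and without the library term (0.130). It also ended with a Cd3 sum of at least 3, at least 2 Trdc UMIs, a Tcrg-C or Cd3e UMI, at least 1000 UMIs per cell or no NK receptors (adjusted p from 0.0516 to 0.789). The Ifng difference lay between -1.35 and -0.86 in these fits, apart from -0.53 in members without NK receptors. Cd7 (0.52 ± 0.10, adjusted p = 0.00216) and Ly6c2 (0.45 ± 0.13, adjusted p = 0.0499) were higher. The Ly6c2 call ended with DESeq2 (adjusted p = 0.455) and without the library term (0.607), but held with a Cd3e UMI required (1.58, adjusted p = 2.09e-05). Cd7 turned to -1.70 (adjusted p = 0.000743) in members without NK receptors and to -0.07 (adjusted p = 0.906) with a Cd3e UMI required. The inflammatory chemokines Ccl3 (-2.21 ± 0.21) and Ccl4 (-2.26 ± 0.21) were lower, each with over 50% of its member UMIs in 5 cells, and the Ccl3 call ended with DESeq2 (adjusted p = 0.220). The Gzma call ended without the library term (adjusted p = 0.0829). Ltb, the lymphotoxin beta gene, was higher (0.71 ± 0.12, adjusted p = 0.000186). Adam19 (2.30 ± 0.37) and Irf8 (-2.07 ± 0.24) were the other genes the rule named. Without the members that carried NK receptors, 109 genes (1.91%) still differed from NK cells, 51 higher (0.895%) and 58 lower (1.02%), and with a Cd3e UMI required 58 (1.02%) were higher and 65 (1.14%) lower.

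The interleukin-17 program was found in a small number of members. Of 11 tested genes of the wider list, Ccr2 and Cd163l1 were higher than in T cells and Icos and Il7r were lower (median -0.29). Il7r, the interleukin-7 receptor chain, differed by -0.82 ± 0.16 over all members but by 0.68 (adjusted p = 0.251) in those without NK receptors, where it lay at 992 and 515 CPM. Against NK cells Il7r (0.87 ± 0.19, adjusted p = 0.00396) and Cd163l1 (5.50 ± 0.68) were higher. The Il7r call ended with DESeq2 (0.79, adjusted p = 0.204) and without the library term (0.87, adjusted p = 0.228). Cd163l1, a scavenger receptor known from interleukin-17 gamma delta T cells, was higher than in T cells by 5.55 ± 0.71 (adjusted p = 6.2e-07), but its 3 and 21 UMIs came from 1 female and 5 male members, against 1 and 2 UMIs in T cells and 4 and 0 in NK cells, so the size of the difference is poorly fixed. Blk, a kinase with the same association, had 16 UMIs in 3 male members and none in female members. Sox13 had 0 and 2 UMIs in members, and Il17a and Il23r a single male UMI each. Il17f, Ccr6 and Il1r1 had none.

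A core list of 13 interleukin-17 genes and a core list of 13 cytotoxic genes were counted per cell. The interleukin-17 list was poorly specific by presence alone: 9 of 54 members in females and 14 of 36 in males held at least 1 UMI, as did 30.0% and 33.7% of NK cells and 64.6% and 60.6% of B cells. Among members without NK receptors the counts were 2 of 15 in females and 9 of 14 in males, a difference of -51.0 percentage points (Newcombe interval -72.6 to -15.5), and with at least 2 UMIs in 1 of 15 and 9 of 14. After drawing 1000 UMIs per cell the counts were 1 of 14 and 8 of 14. This difference exceeds counting error but rests on 1 library per sex and was read from a class drawn after the values were seen. A set of 5 members without NK receptors held 8 or more core UMIs, 4 male cells (12 to 31) and 1 female cell (8), and this cut was also set after their values were seen. Cd163l1 is part of the sum that chose them. All 5 held Tcrg-C1, none held Tcrg-V1 and 1 held Trgv2. Their cytotoxic core sums were 0 to 1 UMIs in the male cells and 2 in the female cell, whereas the other members without NK receptors had medians of 51.5 (female) and 26 (male). A male member with NK receptors and no Cd3e also held 9 interleukin-17 core UMIs, all of them Tmem176b, beside 165 cytotoxic core UMIs. By class the median cytotoxic core sum was 47 and 20 without NK receptors, 122 and 107 with NK receptors and Cd3e, and 158.5 and 166 with NK receptors and no Cd3e. Depth differed between these classes, with median UMIs per cell of 2897 and 3799, 4043 and 4640, and 6088 and 6556.5, and per 1000 UMIs the median cytotoxic core sums were 13.1 and 4.79, 25.7 and 19.5, and 26.3 and 24.8.

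**Figure D5:**
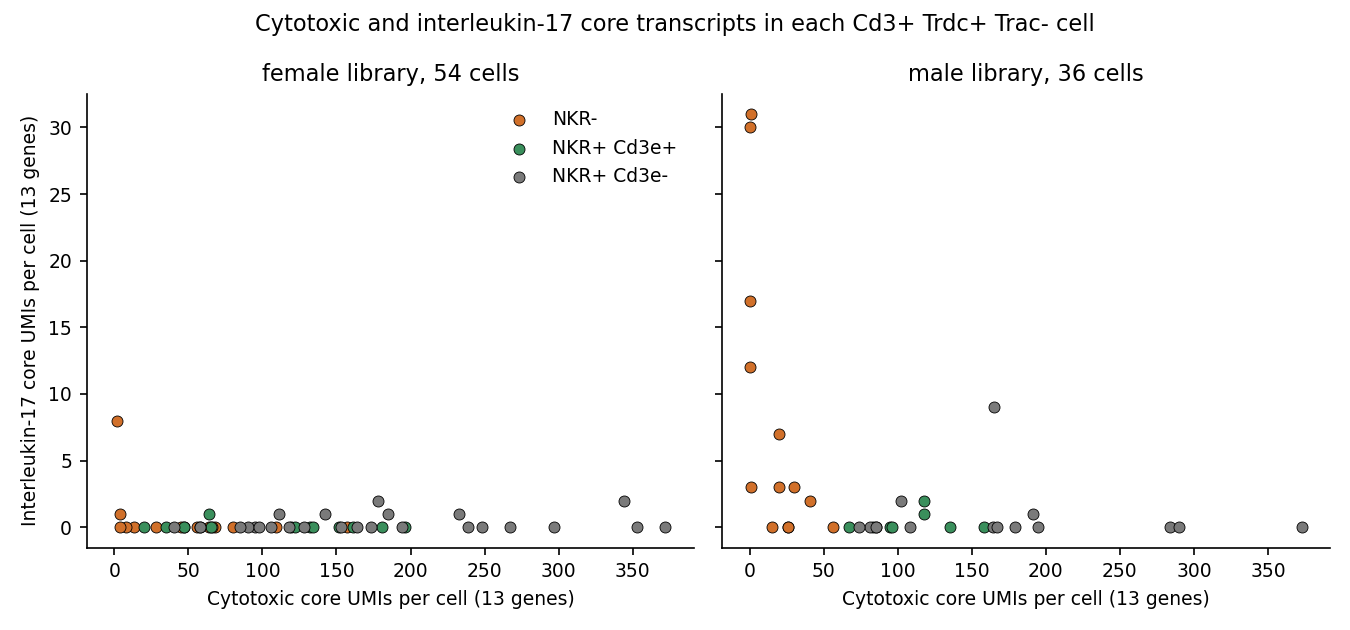
Each point is a Cd3+ Trdc+ Trac- cell, placed by its UMIs of 13 cytotoxic core genes (horizontal) and 13 interleukin-17 core genes (vertical), coloured by class (NKR+ and NKR-, with and without NK receptors), in the female (54 cells) and male (36 cells) library. The cells with most interleukin-17 core UMIs, 12 to 31 in 4 male cells without NK receptors, held at most 1 cytotoxic core UMI.

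Genes of secretion, regulation and cell state were counted by list. Of 7 tested secreted factors Ccl3, Ccl4, Fgl2 and Tnfsf10 were higher than in T cells, and of 8 checkpoint and costimulatory genes Cd200r1, Cd244a, Fcgr3 and Tnfrsf9 were higher (medians 0.73 and 1.37). No gene of either list passed in members without NK receptors set against all T cells, or with a Cd3e UMI required. Areg, the amphiregulin gene, had no UMI in any member. All 5 tested proliferation genes were lower than in T cells (median -1.33), with Stmn1 at -1.33 ± 0.28 (adjusted p = 0.00104). In members without NK receptors 0 of the 5 passed against all T cells and 4 were lower than in T cells without NK receptors, and 2 were lower with a Cd3e UMI required. The adrenal gland makes glucocorticoids, and of 7 tested genes of the receptor and its induced targets 1, Tsc22d3, was lower than in T cells (median -0.15) and none was higher. The Tsc22d3 call was lost in members without NK receptors, against either set of T cells, and with a Cd3e UMI required. The glucocorticoid receptor gene Nr3c1 lay at 61.6 and 136 CPM in members and 89.0 and 98.7 in T cells. None of 8 tested immediate early and heat shock genes passed against T cells. Against NK cells 1 of them, Junb, was lower in members. That call was lost in members without NK receptors and with a Cd3e UMI required.

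Markers of other cell types were low in the members apart from those of NK cells. Summed over 10 NK marker genes, members held 4403 and 4430 CPM against 893 and 839.8 in T cells and 6599 and 6398 in NK cells, and the members without NK receptors held 445 and 305. The fit, which left out the rules' genes, tested 8 of these 10. The sum can therefore include Ncr1 and Klre1, which chose the NK cells and the members without NK receptors. Part of these gaps can follow from that choice. Of 13 adrenal cortex and medulla genes 3 had a UMI in each library (14.5 and 21.0 CPM). Cd74, an antigen presentation gene, was lower than in T cells (-0.92 ± 0.24, adjusted p = 0.0089) and NK cells (-1.67 ± 0.22, adjusted p = 1.64e-06), and the call against T cells ended with DESeq2 (adjusted p = 0.132), without the library term (0.0767) and without doublets (0.0618). The macrophage gene Lyz2 was lower than in NK cells (-1.68 ± 0.36, adjusted p = 0.00417), by -2.54 in the female and -0.09 in the male library, and that call ended with DESeq2 (adjusted p = 0.294). Of the macrophage list 12 of the 12 genes were seen in both T and NK cells and 11 and 9 in members. Haemoglobin transcripts were found mainly on the NK side: Hba-a2 had no UMI in members and 924 in NK cells, at least 32.3-fold lower in members, and Hbb-bt none against 510, at least 17.8-fold lower. The part these transcripts have in other results was not tested. Cd8a was lower than in T cells (-1.82 ± 0.29, adjusted p = 2.64e-05), a difference that the choice of cells can add to, since a UMI of its partner Cd8b1 barred members but not T cells. The call ended with a Cd3e UMI required (-0.65, adjusted p = 0.519). It was higher than in NK cells (16 and 5 UMIs in members against 2 and 1), with 5 and 1 members with NK receptors and Cd3e holding it. A doublet score removed 1 female member and no male member.

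Female and male members were compared without a test. Of 2323 genes with at least 30 UMIs, 300 (12.9%) had a female over male ratio of CPM whose exact conditional interval excluded 1, 122 higher in females (5.25%) and 178 higher in males (7.66%), and the median log2 ratio was -0.07. These intervals cover counting error and take no account of the spread between cells or animals. Xist had 541 and 0 UMIs. The genes highest in males were Tmem176a and Tmem176b, a pair of membrane protein genes of the interleukin-17 core list, at ratios of 0.108 (0.0328 to 0.279) and 0.131 (0.0491 to 0.297) from 5 and 32 and 7 and 37 UMIs. All 32 male Tmem176a UMIs and 23 of the 37 male Tmem176b UMIs came from members without NK receptors. Without the 5 cells richest in each gene the ratios were 0.635 and 0.326. Tia1, an RNA-binding protein of cytotoxic granules and stress granules, had a ratio of 0.186 (0.0681 to 0.439), Ccl3 0.242 (0.118 to 0.467) and Plec 0.270 (0.110 to 0.606). Without the 5 cells richest in it the Ccl3 ratio was 0.528. Higher in females were Ccl1, with 35 UMIs in 2 female cells and none in males, Igkc at 4.83 (1.69 to 18.9), the receptor Klra5 at 4.83 (2.18 to 12.6), Zfp644 at 3.22 (1.31 to 9.51) and Sqstm1 at 3.06 (1.32 to 8.22). Without the 5 cells richest in it the Klra5 ratio was 1.12. Igkc is a B cell gene, and its part in the count was not tested. Among members without NK receptors 93 of 450 genes (20.7%) had an interval that excluded 1.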

How the data were processed

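Adrenal CD45+ cells of 1 female and 1 male library were measured by droplet 3′ RNA sequencing. The authors deposited raw UMI counts per gene and barcode, and the submitters' processing notes name Cell Ranger 4.0.0, DropletUtils 1.4.3, Seurat 3.1.0 and build mm10. Barcodes with at least 200 genes and at most 15% mitochondrial counts were kept (3817 and 2502), because the 1.2% ceiling given in the study's methods would have kept 327 of 3963 and 359 of 2685, fewer cells than the study states it had after filtering, so that ceiling may not be the one it applied. The members, the gene lists and the tests were chosen with earlier results of these data known.

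UMIs were summed per library and population and tested with edgeR 4.0.16 (R 4.3.3; trimmed-mean normalization, mean of at least 20 CPM, library as a term, Benjamini-Hochberg adjustment). DESeq2 1.42.0 was an alternative. Levels are CPM with exact Poisson intervals, shares have Clopper-Pearson intervals, and all cover counting error only at 95%. The lists could be named freely. Beyond them, the 10 genes per direction with the largest differences from T cells and the 5 from NK cells were named if past the threshold and changed alike in both libraries, leaving out rule genes and genes with over 50% of member UMIs in 5 cells. For female against male members, the 5 highest and 5 lowest ratios were named. On simulated data for the comparison with T cells (5700 genes), 77% of 100 genes changed 4-fold and 28% of 100 changed 2-fold were called. The simulation used the depth of all members and a set spread above the one estimated over all genes (common dispersion 0.0037). It was not run for the smaller subsets of members. Doublets were scored with scanpy 1.11.5 at a fixed rate and kept except in an alternative. A few genes are not reported here, though counts over a list include them. Members without NK receptors, members and T cells without NK receptors, and members with Cd3e were alternatives added after seeing the data.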

Additional observations from a re-analysis of the deposited data

How the results depend on the processing

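No paired analysis was possible because, for female against male, each sex has a single library and a replicate block needs at least 2 numbers shared by the groups. The comparisons with T and NK cells were paired by the library term, and without it 154 genes were higher than in T cells. Each edgeR fit has 2 libraries as its only replicates, so the number of libraries limits the precision, and low genes rest on few UMIs. With either library left out, differences are values with no test. Of the 42 named genes against T cells and the 32 against NK cells, none that had passed the threshold changed direction. The naming rule had required this of the genes it chose, so it is no check on them. A change of direction in a gene that had not passed was not counted. DESeq2 size factors reversed no gene that had passed. Causes of the shifts below were not tested. Some settings left very few members (1 female and 2 male at a 1.2% mitochondrial ceiling, 2 and 2 without Trbc1 or Trbc2 UMIs), and genes with no member UMI gave no value. The median of all genes then moved to -2.60 (T cells) and -2.99 (NK cells), and to -1.16 and -1.09, and without a filter on low levels to -0.23 and -0.22.

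The member share became 0.306% in females and 0.557% in males at the 1.2% ceiling, 0.0524% and 0.0799% without Trbc UMIs, 0.393% and 0.560% without NK receptors and 0.707% and 0.839% with Cd3e, and in females 1.02% with at least 2 Trdc UMIs and 0.865% with a Tcrg-C UMI. The share of members with any Tcrg-C UMI, 61.1% and 72.2%, became 100% in both sexes at the 1.2% ceiling and without Trbc UMIs, 86.7% and 92.9% without NK receptors, and 96.3% and 100% with Cd3e. The male share with a cytotoxic core UMI was 50% at the 1.2% ceiling and 50% without Trbc UMIs. The interleukin-17 core share was 5.56% in females with at least 2 UMIs, 100% in both sexes at the 1.2% ceiling, 0% in females and 100% in males without Trbc UMIs, and 64.3% in males without NK receptors.

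Genes higher than in T cells numbered 129 with DESeq2's Wald test, 135 at 100 CPM or more, 3 at the 1.2% ceiling, 103 with a Tcrg-C UMI, 5 without NK receptors, 22 with both members and T cells without NK receptors and 23 with Cd3e. Without Trbc UMIs edgeR called 0 higher, with 633 genes of either direction at an unadjusted p under 0.05. Genes lower than in T cells numbered 107 with DESeq2, 344 without a filter, 126 at 100 CPM or more, 85 without the library term, 130 at the 1.2% ceiling, 117 with a Tcrg-C UMI, 30 without Trbc UMIs, 5 without NK receptors, 38 with both without NK receptors and 16 with Cd3e. Genes higher than in NK cells numbered 32 with DESeq2, 19 at 100 CPM or more, 32 without the library term, 5 at the 1.2% ceiling and 6 without Trbc UMIs. Genes lower than in NK cells numbered 19 with DESeq2, 92 without a filter, 30 without the library term and 18 without Trbc UMIs. Genes whose female over male interval excluded 1 numbered 193 of 1391 (13.9%) with a Tcrg-C UMI, 93 of 450 (20.7%) without NK receptors and 169 of 923 (18.3%) with Cd3e, against 300 of 2323 (12.9%) for all members.

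Against NK cells, DESeq2 and the fit without the library term each ended 10 calls among the 32 named genes, including Cd7, Fcer1g, Ifng, Il7r, Ly6c2, Lyz2, Nkg7 and Thy1 in both. Against T cells each ended 3 calls among 42, including Cd74 in both, at least 2 Trdc UMIs ended 6 (Cd74, Il7r, Ly6c2, Prf1, Rcbtb2 and Stmn1) and a Tcrg-C UMI ended 9 (Actn1, Cd74, Icos, Il7r, Klri2, Ly6c2, Nkg7, Prf1 and Rcbtb2).

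The reversals listed here are of genes that had passed the threshold over all members. Against T cells, directions reversed with Cd3e for Il7r (0.31), Ly6c2 (0.22) and Prf1 (-0.072). Without NK receptors they reversed for Gzmb (-1.80), Il7r (0.68), Itgax (-0.53), Klri2 (-1.13), Ly6c2 (0.064), Nkg7 (-0.39), Prf1 (-0.13), Tyrobp (-0.56) and Xcl1 (-0.95), and with T cells so restricted as well for Gzmb (-0.67), Il7r (0.51), Ly6c2 (0.32), Nkg7 (-0.16) and Xcl1 (-0.34). At the 1.2% ceiling they reversed for Ccl5 (-5.75), Fcer1g (-1.51), Il7r (0.45), Nkg7 (-4.58) and Tyrobp (-0.45), and without Trbc UMIs for Ccl5 (-0.65), Gzmb (-2.64), Il7r (0.35), Klrd1 (-0.69), Ly6c2 (0.41), Nkg7 (-0.33), Prf1 (-0.44) and Xcl1 (-1.16). Against NK cells Cd7 reversed with Cd3e (-0.065), without NK receptors (-1.70) and without Trbc UMIs (-1.70), Cd74 (1.77), Ltb (-2.51) and Trbc2 (-0.15) reversed at the 1.2% ceiling, and Ltb (-0.85) reversed without Trbc UMIs.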
